A study of Oryza sativa Japonica Group with 6 samples.

Results

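In rice leaf blades, 26 loci gave a strong signal on every array labelled Line 13 and no signal well above background on any array labelled wild type. They were picked from 28855 loci on a rice oligonucleotide array by the measured values themselves. A locus qualified when at least 1 of its probes had a log2 level of 2 or more on each of 3 Line 13 arrays. The log2 level is the processed signal of a probe divided by the 75th percentile of its own array, on a log2 scale, so that a level of 2 is 4 times that percentile. In addition, no probe of the locus could be well above background on any of 3 wild-type arrays, by the scanner software's own call. The rule left out 3 loci by name, of which 1 met it. The levels that follow on either set of arrays therefore describe how the loci were chosen, and no test is attached to them.

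The series compared Line 13, a single transgenic line in which a linalool synthase is overexpressed, with wild type, both of the rice cultivar Nipponbare. Linalool synthase is the enzyme that makes the volatile monoterpene alcohol linalool from geranyl diphosphate. In both groups the tissue was the blade of the fourth leaf at the four-leaf stage, from untreated seed-grown plants kept in a growth chamber at 25 °C. Each group had 3 samples, and each sample pooled at least 3 plants before RNA extraction. The sources used here do not name the promoter of the transgene, and 1 line cannot separate the transgene from its insertion site or from changes that arose during its making. Labelled RNA from each sample was hybridised to 1 array with 1 colour, Cy3, from 100 ng of total RNA. The number of arrays limits the precision of every value.

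Rice locus identifiers carry the chromosome after the letters Os and a number that rises along the chromosome, so that close numbers mark neighbouring genes. The files used here hold no description of any of the 26 loci, so no function is assigned to them. A grass leaf blade grows from its base, where cells divide and then expand, and matures towards its tip, where photosynthetic genes are strongly expressed. Transcripts of dividing or expanding cells are therefore scarce in a mature blade, and a bulk sample cannot tell fewer cells of a type from less RNA per cell. A probe reports only the stretch of transcript that it matches, and different probes of a locus need not give the same signal.

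The arrays differed in brightness, and the signal of the linalool synthase locus went against the labels. The 75th percentile of processed signal was 325, 1559 and 932 on replicates 1 to 3 labelled Line 13, and 720, 883 and 959 on those labelled wild type. The share of spots well above background was 72.3% to 85.5% on the arrays labelled Line 13 and 71.4% to 72.3% on those labelled wild type. The linalool synthase locus Os02g0121700, with 1 probe, had log2 levels of -6.52, -5.84 and -3.65 on the arrays labelled Line 13, against -3.32, -0.92 and -1.50 on those labelled wild type. It was thus lower in the line labelled as an overexpressor (difference -3.43, SE 0.90, limma adjusted p = 0.0185), so every direction below is one between labels. The files do not say if that probe lies in the transgene. All arrays labelled Line 13 lay on 1 slide and all arrays labelled wild type on another, so slide and group cannot be told apart.

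Loci of this kind were rare among strong ones. On all 3 arrays labelled Line 13, 1298 loci reached the level of 2, and 1261 of them (97.1%) were well above background on all 3 arrays labelled wild type. Above background on no wild-type array were 27 (2.08%), which are the 26 loci and the one left out by name. A strong signal with an intermediate pattern was rarer still, since 6 loci were above background on 1 wild-type array and 4 on 2. The 6 include loci that the rule left out by name. In the opposite direction, 1822 loci reached the level of 2 on all arrays labelled wild type, and 1 of them (0.0549%) was above background on no array labelled Line 13. That locus, Os01g0383700, had levels of -7.76, -10.15 and -9.18 on the arrays labelled Line 13, against 3.65, 3.51 and 3.63 on those labelled wild type. Both directions were counted at unlike limits of detection. The lowest level of a probe well above background was -5.47, -7.88 and -6.87 on Line 13 replicates 1 to 3. On wild-type replicates 1 to 3 it was -5.94, -5.97 and -6.14.

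**Figure D1:**
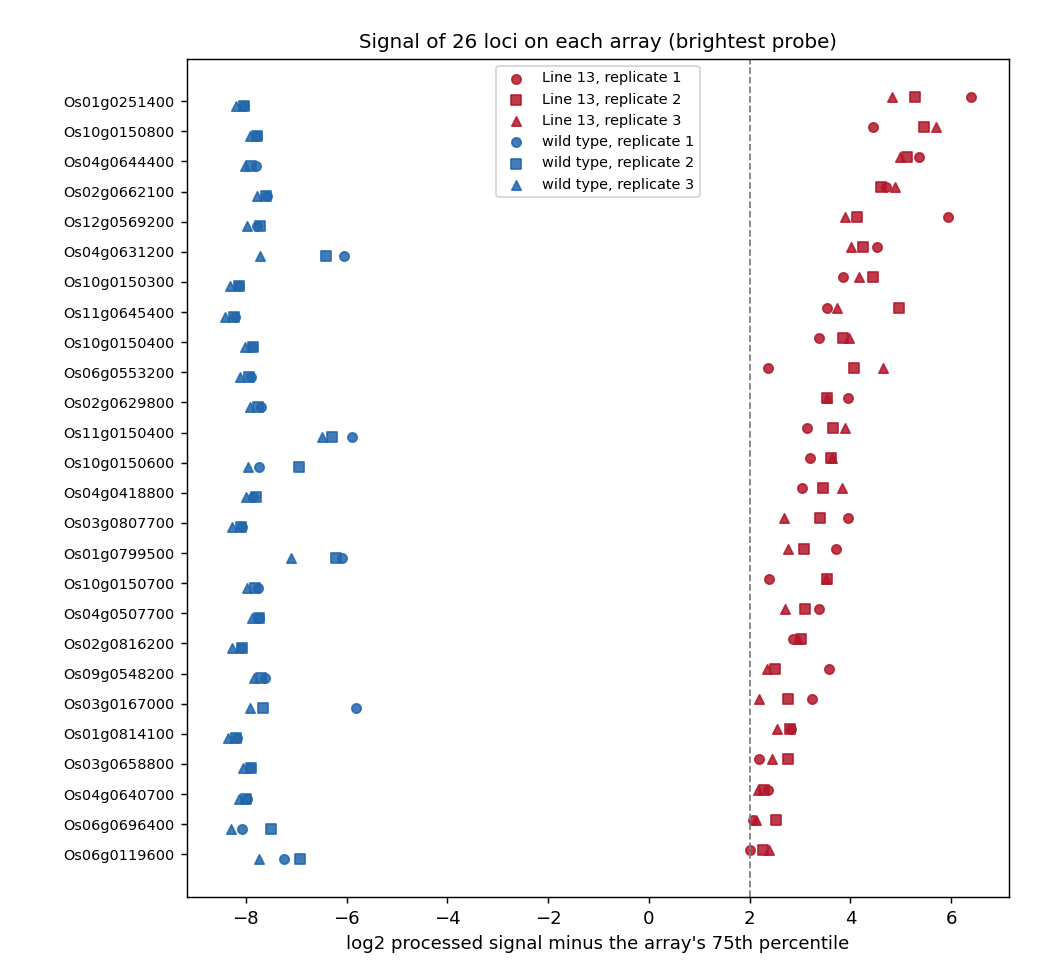
Log2 level of the brightest qualifying probe of each of the 26 loci on the 3 arrays labelled Line 13 (red) and the 3 labelled wild type (blue), with symbols for the replicate and a dashed line at the level of 2 that the rule asks for. The values on the arrays labelled Line 13 run from 2.0 to 6.40 and those on the arrays labelled wild type from -8.42 to -5.82.

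Levels of the 26 loci on the arrays labelled Line 13 spanned 2.0 to 6.40, with a median locus mean of 3.46. On the arrays labelled wild type they spanned -8.42 to -5.82, with a median locus mean of -7.87. The smallest gap between the lowest Line 13 value of a locus and its highest wild-type value was 8.0. All 26 were called higher by limma, where 26.8% of 22222 loci tested were (5948 higher and 6222 lower, or 4683 and 8322 with arrays scaled to their medians), and in all 26 the groups did not overlap, where in 32.7% of those tested the arrays labelled Line 13 lay above the others. The rule used this contrast and so fixes both counts of members.

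Since none of the loci was well above background on a wild-type array, the size of each difference is given only as a nominal lower bound. The bound sets the Line 13 mean against the lowest signal of any probe well above background on each wild-type array, or against the probe's own signal where that is higher. This is no strict limit, since a probe that was not called can read above that lowest signal. Os03g0167000 and Os11g0150400 did so on wild-type replicate 1, at -5.82 and -5.90 against -5.94. Every fold given as "at least" is meant in this nominal sense. The bound was at least 301-fold for the weakest locus and at least 2934-fold for the strongest, with a median bound of 712-fold. In sum, the brightest probes of the 26 loci held 1.02%, 1.02% and 0.937% of the summed signal of all loci on Line 13 replicates 1 to 3. On wild-type replicates 1 to 3 that share was 0.000310%, 0.000303% and 0.000225%. The members were thus a measurable fraction of the signal in one group and were not well above background in the other, as the rule asks.

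Os01g0251400, on chromosome 1, had the highest mean. Its level was 6.40, 5.28 and 4.83 on the arrays labelled Line 13, against -8.03, -8.03 and -8.20 on those labelled wild type, a signal at least 2934-fold higher. On the linear scale its processed signal was 27488, 60622 and 26483 on the arrays labelled Line 13, against 2.76, 3.37 and 3.27 on those labelled wild type. On the Line 13 arrays it ranked 34, 123 and 185 among all loci by its brightest probe, so it stood highest on replicate 1 in level and in rank. The locus had 1 probe.

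Os10g0150800, on chromosome 10, came next and ran the other way among replicates. Its level was 4.44, 5.45 and 5.69 on the arrays labelled Line 13, against -7.77, -7.78 and -7.92 on those labelled wild type, at least 2372-fold higher. It ranked 331, 92 and 64 on Line 13 replicates 1 to 3. Its lowest array here was replicate 1, the array on which Os01g0251400 was brightest.

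Os04g0644400, on chromosome 4, gave like values on every array labelled Line 13. Its level was 5.36, 5.12 and 4.99 on the arrays labelled Line 13, against -7.80, -7.89 and -8.02 on those labelled wild type, at least 2307-fold higher. All 5 of its probes met the minimum, and their Line 13 means lay between 5.03 and 5.16. Os02g0662100, on chromosome 2 and with 1 probe, varied even less. Its level was 4.70, 4.60 and 4.88 on the arrays labelled Line 13, against -7.57, -7.60 and -7.78 on those labelled wild type, at least 1714-fold higher.

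Os12g0569200, on chromosome 12, was the fifth by mean and varied widely. Its level was 5.93, 4.12 and 3.90 on the arrays labelled Line 13, against -7.78, -7.72 and -7.97 on those labelled wild type, at least 1624-fold higher. The 2 other loci with a mean above 4 outside chromosome 10 were less bright. Os04g0631200 averaged 4.26 ± 0.26 on the arrays labelled Line 13 and -6.72 on those labelled wild type. Os11g0645400 had levels of 3.53, 4.96 and 3.74 on the arrays labelled Line 13, against -8.21, -8.24 and -8.42 on those labelled wild type, so replicate 2 stood above the others.

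The remaining loci outside the chromosome 10 group lay lower, and their ranges over the Line 13 arrays ran from 0.15 to 2.27. The widest was that of Os06g0553200, which averaged 3.69 ± 1.18 and is described further below. Os02g0629800 averaged 3.68 ± 0.24, Os11g0150400 averaged 3.56 ± 0.39 and Os04g0418800 averaged 3.44 ± 0.39 on the arrays labelled Line 13 (SD, n = 3). Os03g0807700 averaged 3.35 ± 0.64, Os01g0799500 averaged 3.18 ± 0.49, Os04g0507700 averaged 3.06 ± 0.33 and Os09g0548200 averaged 2.80 ± 0.68 there. The wild-type means of these 7 loci were all below -6, and their bounds ran from at least 452-fold to at least 828-fold. Os02g0816200 had the smallest range of all 26 loci, 0.15, with levels of 2.85, 3.01 and 2.95 on the arrays labelled Line 13, against -8.10, -8.08 and -8.28 on those labelled wild type. It was at least 495-fold higher, and its 3 probes all met the minimum. The 6 weakest loci, Os03g0167000, Os01g0814100, Os03g0658800, Os04g0640700, Os06g0696400 and Os06g0119600, had Line 13 means of 2.72, 2.72, 2.47, 2.27, 2.24 and 2.22 and wild-type means of -7.13, -8.25, -7.96, -8.04, -7.96 and -7.30. They were at least 301-fold to at least 426-fold higher.

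A group of 5 of the 26 loci stood side by side on chromosome 10. Os10g0150300, Os10g0150400, Os10g0150600, Os10g0150700 and Os10g0150800 follow each other with no other locus of the array between them. No other member had a member as its next neighbour, so the remaining 21 stood alone. Chromosome 10 held 19.2% of the 26 loci and 5.34% of all loci on the array. Chromosome 4 also held 5 (19.2%, against 8.82% of all loci), but these were scattered. Chromosomes 1, 2, 3 and 6 held 3 each, chromosome 11 held 2, chromosomes 9 and 12 held 1 each, and chromosomes 5, 7 and 8 held none. No test is given for these shares.

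Within the chromosome 10 group the level was high at each locus and stopped at both ends. Os10g0150300 had levels of 3.86, 4.45 and 4.17 on the arrays labelled Line 13, against -8.13, -8.14 and -8.32 on those labelled wild type. Os10g0150400 had levels of 3.37, 3.86 and 3.97 on the arrays labelled Line 13, against -7.87, -7.85 and -8.01 on those labelled wild type. Os10g0150600 had levels of 3.19, 3.61 and 3.64 on the arrays labelled Line 13, against -7.74, -6.94 and -7.95 on those labelled wild type. All 3 were lowest on Line 13 replicate 1, and the remaining 2 of the group shared that order. Os10g0150700 had levels of 2.39, 3.54 and 3.52 on the arrays labelled Line 13, against -7.76, -7.81 and -7.98 on those labelled wild type. The bounds of the 5 loci ran from at least 573-fold to at least 2372-fold.

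Loci on either side of the group were far weaker. The next on the lower side, Os10g0150000, averaged -6.10 ± 2.08 on the arrays labelled Line 13 and -7.99 ± 0.09 on those labelled wild type, and was above background on 1 Line 13 array. The next on the upper side, Os10g0151100, averaged -9.00 ± 1.20 on the arrays labelled Line 13 and -8.18 ± 0.09 on those labelled wild type, and was above background on none. Further down, Os10g0149000, Os10g0149100, Os10g0149200 and Os10g0149400 had a weak form of the same pattern. They were above background on all 3 arrays labelled Line 13 and on none labelled wild type, with Line 13 means of -4.48, -4.33, -3.10 and -4.52 against wild-type means of -8.02, -7.65, -7.30 and -7.81. These 4 loci were highest on Line 13 replicate 2, not lowest on replicate 1. On the upper side Os10g0151800 was above background everywhere, at 0.38 ± 0.34 on the arrays labelled Line 13 and 0.60 ± 0.02 on those labelled wild type.

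**Figure D2:**
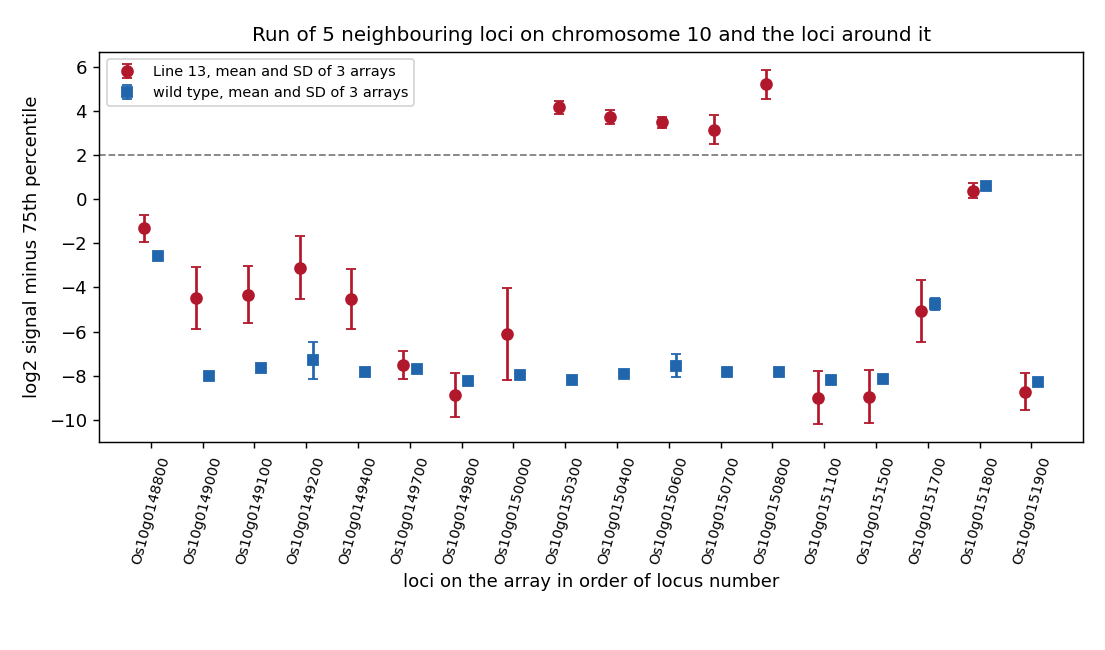
Log2 level (mean and SD of 3 arrays) of loci in the order of their numbers on chromosome 10, with arrays labelled Line 13 in red to the left of arrays labelled wild type in blue. The 5 neighbouring loci have Line 13 means from 3.15 to 5.20, and the loci next to them on either side are at -6.10 and -9.00.

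Loci next to the 26 members did not as a rule share the pattern. Of 44 flanking loci that are not members, 27 (61.4%) were above background on all arrays labelled wild type, against 67.9% of all loci, and 16 (36.4%) on none, against 25.6% of all loci. Only 1 of the 44, Os03g0807800, reached the level of 2 on all arrays labelled Line 13 (2.27%, against 4.50% of all loci), and it was above background on all arrays of both groups, with means of 5.96 and 4.15. Above background on all arrays labelled Line 13 and on none labelled wild type were 5 of the 44 (11.4%, against 6.01% of all loci). These were Os01g0814200, Os02g0662000, Os06g0695900, Os06g0696566 and Os12g0569100, named here after their values were seen, with Line 13 means of -4.47, -4.11, -3.51, -2.24 and -3.39. Both neighbours of Os06g0696400 were among them. Shares for flanking loci and for all loci are set side by side without a test.

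The 26 loci differed in which Line 13 array was brightest. The median range over the 3 arrays was 0.62, from 0.15 to 2.27, against a median of 0.67 for all 1298 loci at the minimum. Replicate 1 was the brightest array for 12 of the 26 (46.2%), replicate 2 for 6 (23.1%) and replicate 3 for 8 (30.8%). For all 1298 loci those shares were 61.2%, 13.6% and 25.1%. Replicate 1 was also the lowest array for 13 of the 26, replicate 3 for 11 and replicate 2 for 2, while of all 22222 loci tested 49.7% were highest and 40.0% lowest on replicate 1. Across the 26 loci the correlation between arrays was 0.93 for replicates 2 and 3, 0.72 for replicates 1 and 2 and 0.61 for replicates 1 and 3. Over 28841 loci it was 0.98, 0.94 and 0.94. These correlations are across loci, which share the arrays, and the 26 cover a narrower range of levels than all loci.

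Loci at the ends of this order moved by more than a level of 1. Os06g0553200 had the widest range, with levels of 2.37, 4.06 and 4.64 on the arrays labelled Line 13, against -7.90, -7.94 and -8.11 on those labelled wild type. Its replicate 1 differed from the mean of the other two by -1.98. Os12g0569200 showed the opposite, with replicate 1 above the mean of the other two by 1.91. Os01g0251400 and Os09g0548200 were also higher on replicate 1, by 1.35 and 1.17. Os10g0150700 and Os10g0150800 lay lower there, with differences of -1.14 and -1.13.

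**Figure D3:**
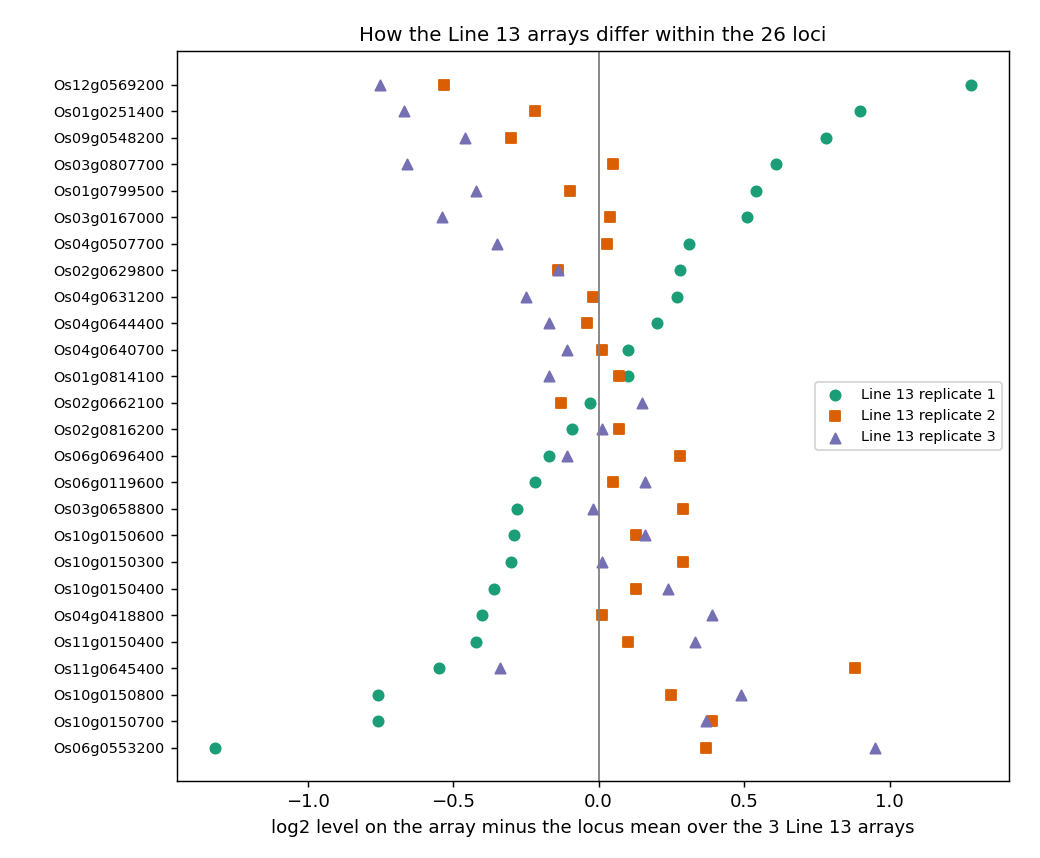
Log2 level of each of the 26 loci on each array labelled Line 13 minus the mean of the locus over these 3 arrays, sorted by replicate 1. Replicate 1 lies above the other arrays for 12 loci at the top and below them for 13, and all 5 neighbouring loci of chromosome 10 are among the 13.

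Cell type and growth-stage lists gave the same arrays different orders. The membership of these lists rests on general knowledge of the loci and was not checked against an annotation. A locus silent on the wild-type arrays could be tested only because it was bright on those labelled Line 13. List counts of calls are therefore given here for loci above background on all 6 arrays. Of 18021 such loci, 21.0% were called higher and 29.3% lower on the arrays labelled Line 13, and the median difference was -0.15. Over all 22222 loci tested it was -0.07, or -0.38 with arrays scaled to their medians and -0.25 with quantile normalization.

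On the cell division list 3 of 11 loci were above background on all 6 arrays, and all 3 were called higher, with a median difference of 2.81. Of the other loci on the list, 7 were above background on all 3 arrays labelled Line 13 and on none labelled wild type (6.01% of all loci were). These 7 could be seen only through the group where they were high. The summed signal of the 11 in units of the 75th percentile was 21.2, 14.8 and 10.4 on the arrays labelled Line 13 and 1.51, 1.22 and 1.18 on those labelled wild type. All 11 were highest on Line 13 replicate 1, where 49.7% of all loci tested were highest. None was a member, since none reached the level of 2 on all arrays labelled Line 13, and the highest lowest-array level was that of Os02g0805200, at 1.63.

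Expansins, which loosen the walls of growing cells, had the reverse order among the arrays labelled Line 13. Of 7 loci 1 was above background on all 6 arrays, and it was called higher, by 5.76. The summed signal of the list was 10.4, 23.3 and 27.7 on the arrays labelled Line 13 and 0.100, 0.959 and 0.742 on those labelled wild type. Of 5 loci above background on all arrays labelled Line 13, all 5 were lowest on replicate 1, where 40.0% of all loci tested were lowest. On the secondary wall list 2 of 4 loci were above background on all 6 arrays, and both were called higher, with a median difference of 3.47. Its summed signal was 0.888, 3.40 and 2.25 on the arrays labelled Line 13 and 0.0701, 0.171 and 0.111 on those labelled wild type, and 3 of 3 loci above background on all arrays labelled Line 13 were lowest on replicate 1. Neither list held a member. Which members move with which list among replicates was not tested.

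Other lists touched the 26 loci little. Of 17 histone loci, 14 were above background on all 6 arrays, and of these 9 were called higher and 1 lower, with a median difference of 1.57. On all arrays labelled Line 13, 10 of the 17 reached the level of 2 (4.50% of all loci did). None was a member. Os11g0155900 and Os05g0438700 were above background on no wild-type array but missed the level, with lowest Line 13 values of 1.62 and 1.37. Os06g0160100 reached the level but was above background on 1 wild-type array, and is described with the loci just outside the rule. Inflorescence and leaf founder regulators had 4 of 8 loci called higher and none lower, with a median difference of 1.84. Floral MADS-box loci had 2 of 6 called lower and none higher (median -0.59), and anther and tapetum loci 1 of 2 higher and 1 lower. KNOX homeobox loci, known as regulators of meristems, and seed storage loci had 1 locus each above background on all 6 arrays, and neither was called. No member stood on any of these lists.

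Root-expressed loci were the one list that held a member, Os02g0662100. Of the 9 loci, 1 was above background on all 6 arrays, with a difference of -0.41, and it was not called. The summed signal of the list was 26.2, 24.8 and 29.8 on the arrays labelled Line 13 and 0.305, 0.575 and 0.837 on those labelled wild type, and nearly all of the Line 13 sum came from Os02g0662100. Its neighbour Os02g0662000, on the same list, had levels of -4.50, -1.88 and -5.96 on the arrays labelled Line 13, against -6.76, -7.84 and -8.43 on those labelled wild type. Os03g0307200 and Os03g0667500 went the other way, with differences of -3.62 and -1.92, and were above background on all 3 arrays labelled wild type. Of 5 loci of the list that could be tested, 2 were called higher and 2 lower (26.8% and 28.0% of all loci tested were). These 4 could be tested only through the group where they were high. Os03g0107300 and Os04g0521100 were above background on no array of either group, so the list did not move as a whole.

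The labelled tissue was checked with 6 loci that mark mature leaf, which were above background on all arrays. Their summed signal was 442, 724 and 777 on the arrays labelled Line 13, against 1186, 970 and 895 on those labelled wild type. Of the 6, 2 were called lower on the arrays labelled Line 13 (28.0% of all loci tested were) and none higher, with a median difference of -0.61. With quantile normalization 2 were higher and 2 lower, and the median was 0.27. All 6 were lowest on replicate 1 among the arrays labelled Line 13, where 40.0% of all loci tested were. Over all loci the count of lower calls was 6222, and 4067 without wild-type replicate 2. Leaf markers were thus abundant in both groups. The part of these lists in the pattern of the 26 loci was not tested.

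Silence on the wild-type arrays was read from 63 probes of the 26 loci. The median raw spot brightness of these probes was 28.5, 31.0 and 29.0 on wild-type replicates 1 to 3, beside 27.5, 31.0 and 29.0 for 153 negative control spots. On each wild-type array all 63 lay within the range of those control spots. The rule left out any locus with a probe well above background there, so this outcome was close to fixed. The range was also wide on wild-type replicates 2 and 3, where the brightest control spots read 290 and 278, far above every member probe. On the arrays labelled Line 13 no control spot read above 59.5, so counts within the range cannot be compared between groups. On Line 13 replicates 1 to 3 the median raw brightness of the 63 probes was 1870, 12714 and 6713, beside 18, 20 and 20 for the control spots, and 2, 1 and 0 of the probes lay within the control range. No member probe was saturated. A looser call of the scanner software, positive and significant, was met in 25 of 189 probe readings on the wild-type arrays. For Os01g0799500, Os03g0167000, Os04g0631200, Os06g0119600 and Os11g0150400 the brightest probe met it on all 3 wild-type arrays.

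Probes of the same locus did not always give the same level. Of the 26 loci, 10 had 1 probe and 16 had several, and in 7 of those 16 every probe met the minimum. Of the 63 probes, 45 met the minimum and 61 were well above background on all 3 arrays labelled Line 13. The array design marks the brightest probe of 23 loci as from an mRNA (88.5%, against 76.9% of all probes with a locus), with the mark CDS+3'UTR. For Os10g0150300, Os11g0645400 and Os12g0569200 the design lists an expressed sequence tag only, and each has 1 probe.

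In 4 loci with several probes the spread between probe means was above 5. Os04g0418800 had 1 probe at 3.04, 3.45 and 3.83 on the arrays labelled Line 13 and another at -6.05, -6.09 and -6.26 there. Os10g0150700 had 5 of 8 probes at the minimum, another with a Line 13 mean of 1.31, and the last 2 at -3.20 and -3.23. Os06g0696400 and Os03g0658800 likewise had 1 probe each far below the rest, with Line 13 means of -3.85 and -3.37. Such loci were kept because the rule asks for 1 probe at the minimum.

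Os10g0150600 split between probes in another way. Of its 6 probes, 1 met the minimum, at 3.19, 3.61 and 3.64 on the arrays labelled Line 13, and the other 5 gave 1.81 to 1.95 on every array labelled Line 13. The 5 were highest on replicate 1, where the brighter one was lowest. Os06g0553200 had 2 probes with means of 3.69 and 3.49 and 2 with means of 1.86 and 1.83, but all 4 were lowest on replicate 1. Its wide range among Line 13 arrays was therefore shared by every probe.

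**Figure D4:**
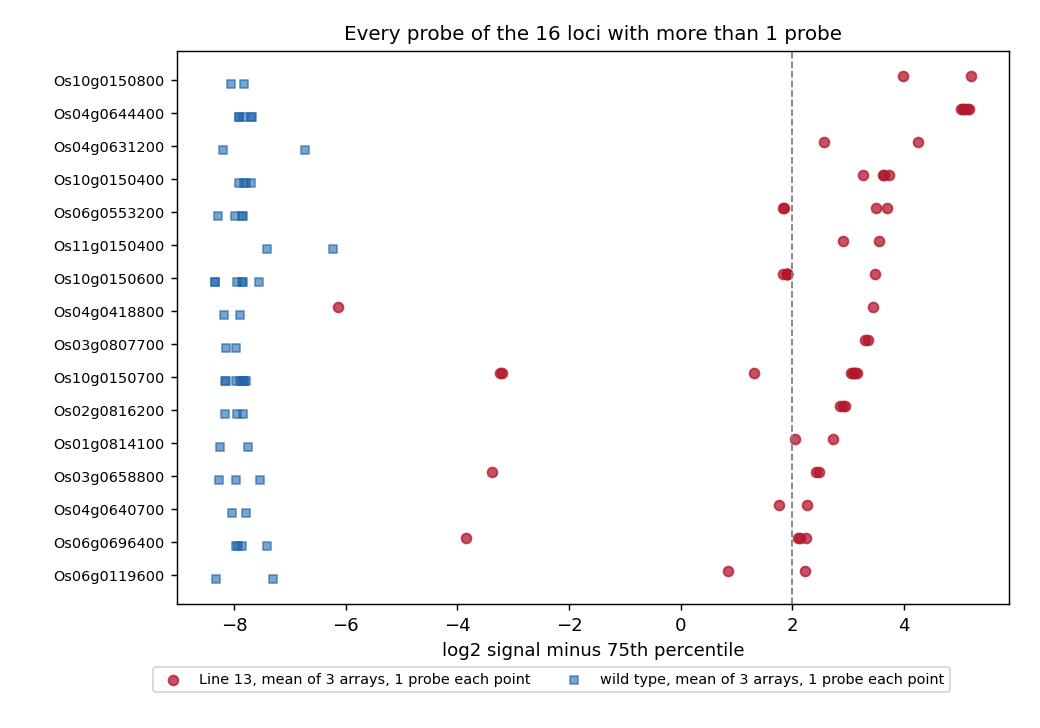
Log2 level (mean of 3 arrays) of every probe of the 16 loci with more than 1 probe, with arrays labelled Line 13 as red circles and arrays labelled wild type as blue squares, and a dashed line at the level of 2. All 5 probes of Os04g0644400 lie together between 5.03 and 5.16, while Os04g0418800 has 1 probe at 3.44 and another at -6.13.

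The level of 2 cut through a continuous tail. Above background on no wild-type array were 7384 loci, of which 1733 were above background on all arrays labelled Line 13. Their lowest Line 13 level was at or above 0 for 150 loci, at or above 1 for 68, at or above 2 for the 26, at or above 3 for 13 and at or above 4 for 5. Those 5 are Os01g0251400, Os10g0150800, Os04g0644400, Os02g0662100 and Os04g0631200. Just inside the rule lay Os06g0119600, Os06g0696400, Os04g0640700, Os03g0167000 and Os03g0658800, with lowest Line 13 levels of 2.0, 2.07, 2.16, 2.18 and 2.19. Just outside lay Os02g0308800, Os06g0156600, Os10g0146200, Os03g0683800 and Os02g0308400, at 1.93, 1.91, 1.85, 1.84 and 1.84. No gap separates both sets of values.

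**Figure D5:**
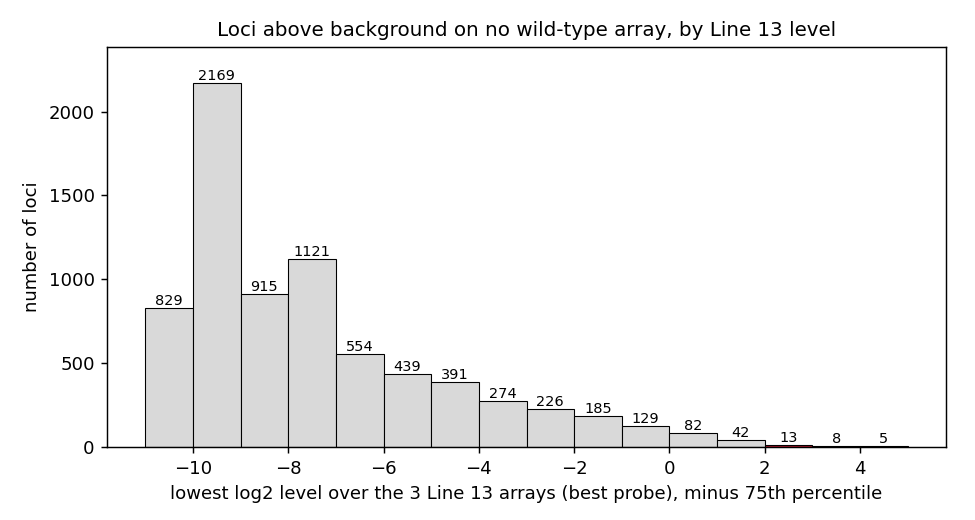
Number of loci above background on no array labelled wild type, by their lowest log2 level on the 3 arrays labelled Line 13 (7382 loci with a value there, bins of 1). Counts fall to 42 in the bin below the level of 2 and to 13, 8 and 5 in the bins above it, coloured red.

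A few strong loci that were not left out by name missed the rule only through 1 wild-type array. Os05g0419800 had levels of 4.89, 3.85 and 3.70 on the arrays labelled Line 13, against -5.47, -6.08 and -6.56 on those labelled wild type. Os07g0565800 had levels of 3.02, 3.10 and 3.01 on the arrays labelled Line 13, against -4.96, -7.15 and -7.95 on those labelled wild type. The histone locus Os06g0160100 had levels of 3.65, 3.01 and 2.25 on the arrays labelled Line 13, against -5.16, -5.68 and -6.37 on those labelled wild type. In these 3 loci the wild-type signal was highest on replicate 1, whereas Os03g0134900 had it on replicate 2, at -3.86.

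The median member profile over Line 13 replicates 1 to 3 was 3.37, 3.54 and 3.59. The 5 other loci nearest to it, by root mean square distance over these 3 arrays, were Os05g0337400 (0.013), Os02g0123500 (0.078), Os01g0659200 (0.102), Os03g0331600 (0.114) and Os03g0319300 (0.117). All 5 were above background on all arrays labelled wild type, with means of 2.27, 3.24, 2.99, 3.48 and 3.90 there. Their Line 13 levels are like those of the members by this choice.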

How the data were processed

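Each of 6 samples (3 Line 13, 3 wild type) was hybridised to 1 one-colour array. Per the file headers, spots were measured with Agilent Feature Extraction 10.10.1.1, and the deposited processed intensity is linear, background-subtracted and detrended, but not scaled between arrays. The value table that the authors deposited holds linear intensity too. Set against the scanner values, a column is the processed signal multiplied by 1 factor for that array (7.66, 1.61 and 2.69 for Line 13, 3.27, 2.75 and 2.48 for wild type), with medians of 494.5, 554.8 and 561.45 for Line 13 and 395.65, 426.55 and 412.25 for wild type. Genes are not centred in it, and the sources used here do not say how the factors were set. The flags (well above background, positive and significant, saturated, outlier) are the software's, with values of 0 or 1, as deposited.

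Levels were computed here as log2 processed signal minus log2 of the 75th percentile of non-control spots, array by array. Outlier spots and 48 probes marked as no gene were left out of 42477 non-control probes, and repeat spots were averaged. The design gave a locus for 42004 probes, first from the systematic name and otherwise from the start of the probe name. The 1358 probes whose names point to different loci included none of the members. None of the 26 loci (0) was found in the RefSeq gene table at hand. For folds given as bounds, the floor on an array was the lowest signal among probes with every spot well above background.

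The fit over all loci used lmFit and eBayes of limma 3.58.1 (R 4.3.3) with the 2 groups and no block. P-values were adjusted by Benjamini-Hochberg and called under 0.05. Tested were probes that counted as above background (in at least 50% of their spots) on every array of either group, and the brightest tested probe stood for a locus. The fit was tested on simulated data. Python 3.11.15 with pandas 2.3.3 and numpy 2.4.6 gave the tables, and matplotlib 3.10.9 the plots.

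The members and the gene lists were chosen with earlier results of these data known. The text names the 20 members with the highest mean, members on the lists, the 5 loci nearest to the threshold on each side, up to 5 strong loci above background on 1 wild-type array, members of extreme range, the longest run and members whose probes differ most. List loci and flanking loci were named after their values were seen. Same-numbered replicates deviated together with correlations of 0.108, -0.025 and -0.005 over 22222 loci. These values gave little sign of a pairing by number but cannot exclude one, and the labels name none. Alternatives were other scalings (array median, recentred to the same overall level, and quantile), the authors' table, normexp background correction with an offset of 50, outlier spots kept, other level minimums and flags, and each replicate left out. Normexp was planned on mean signals, a column not used here, and was run on median signals. Chosen after seeing the data were the locus taken from the probe name first, every probe at the minimum, and the alternatives for the brightest array.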

Additional observations from a re-analysis of the deposited data

How the results depend on the processing

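The count of 26 loci depended most on the rule's own limits. It was 44 with a level minimum of 1.5, 18 with a minimum of 2.5, 16 where silence was read from the positive-and-significant flag and 17 where every probe of a locus had to reach the minimum, a choice made after seeing the data. Array median scaling gave 22, normexp 25, quantile normalization and the authors' values each 26, and the probe name first 27. Leaving out 1 replicate gave 26 to 33, each time with all 26 among them, which is fixed because fewer arrays can only loosen the rule. Under all 17 settings 11 of the 26 loci were kept. Settings that only loosen the rule, such as the minimum of 1.5, could not lose a member. Nor could the authors' values, which differ from the processed signal by 1 factor per array that the scaling removes. The median Line 13 level was 3.21 to 3.51, and 10 to 12 members were brightest on Line 13 replicate 1. Of 208 member means under alternatives, 9 moved by at least the SD between replicates, 4 of them under normexp. The rest moved under array median scaling or, for Os04g0644400, quantile normalization. The 208 include the authors' values, which match the main ones by construction.

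Over all loci, 5948 were called higher and 6222 lower on the arrays labelled Line 13. A filter on all 6 arrays gave 3792 higher and 5276 lower. Array median scaling gave 4683 higher and 8322 lower. Leaving out 1 replicate gave 4698 to 7083 higher and 4067 to 7510 lower, in both directions fewest without wild-type replicate 2. The labels name no pairing by replicate number, and the fit with the replicate block gave 5510 higher and 5390 lower. Signal not well above background on the wild-type arrays leaves every member fold a nominal bound.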
